A study of Mus musculus with 24 samples.

Results

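Aminoacyl-tRNA synthetases are the enzymes that join each amino acid to its tRNA, and their mRNAs were followed in total and polyribosomal RNA of the early postnatal mouse cortex. The members were 36 synthetase genes of the cytosol and the mitochondrion, listed by symbol, and a member's values came from the array probe sets whose only annotated gene was that symbol or the same symbol with the suffix 1. By this rule 35 of the 36 genes were found, with 72 of the 34945 probe sets that carry 1 gene symbol and 35 of 18193 symbols in all. Dars, the aspartate enzyme of the cytosol, was not analysed here. The list was chosen by function, but with earlier results of these data known.

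Most synthetases recognise 1 amino acid and the tRNAs that read its codons, and charge the tRNA at the cost of ATP. The cytosol and the mitochondrion translate separately, so most amino acids have a cytosolic enzyme and a second, nuclear-encoded enzyme that is imported into mitochondria and serves the few respiratory chain subunits made there. The genes of the mitochondrial enzymes carry the suffix 2, and Gars and Kars, the glycine and lysine enzymes, each serve both compartments from a single gene. Several cytosolic enzymes are held together in the multisynthetase complex. Synthetases fall into class I and class II, which differ in the fold of the catalytic site. Mutations in many of these genes cause disease of the nervous system.

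The tissue was cerebral cortex of male mice of the FVB background at postnatal day 7. Fmr1 KO mice lack FMRP, an RNA-binding protein found on polyribosomes whose loss causes fragile X syndrome, and WT littermates were the controls. The 4 groups were Fmr1 KO polyribosomal RNA, Fmr1 KO total RNA, WT polyribosomal RNA and WT total RNA, with 6 arrays each. Each genotype gave 6 lysates, each made from 2 pooled mice, and each lysate gave 1 polyribosomal and 1 total array. Polyribosomal RNA was the pool of gradient fractions 10 to 13 of 16, in which mRNAs carry 6 or more ribosomes, and total RNA was taken from the cleared cytoplasmic lysate before the gradient. The knockout was present in every cell of the KO mice and not in a chosen cell type, and the lysates mixed all cells of the dissected cortex.

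The Fmr1 signal on the log2 scale was 6.19 ± 0.48 in KO polyribosomal RNA and 9.90 ± 0.21 in WT polyribosomal RNA, and 6.38 ± 0.17 in KO total RNA and 9.66 ± 0.18 in WT total RNA (SD, n = 6 each), so the arrays carried their labelled genotype. All 7 measured excitatory neuron markers, all 8 interneuron markers and all 7 astrocyte markers had group means of at least 4, while the 2 measured blood markers stayed below 4 in every group. Of 4 choroid plexus markers only Ttr, the transthyretin gene, had group means of at least 4, at 7.42 ± 4.81 in KO polyribosomal and 9.78 ± 3.44 in WT polyribosomal RNA, and 6.92 ± 4.46 in KO total and 8.93 ± 3.16 in WT total RNA (SD, n = 6 each). The mean of the 4 markers per array ran from 2.96 to 5.43 in KO polyribosomal and from 3.17 to 5.46 in WT polyribosomal RNA, and from 2.83 to 5.03 in KO total and from 3.07 to 5.10 in WT total RNA, so its spread was wide in all 4 groups. Ttr was also called higher in polyribosomal than in total RNA in both genotypes, by 0.51 in KO and 0.85 in WT, and its part in the results was not tested. Microglial markers reached 4 for 1 to 2 of 6 and endothelial markers for 0 to 1 of 5. Oligodendrocyte lineage markers reached it for 4 to 5 of 6 measured. Of 6 measured markers of other brain regions, 3 to 4 reached it. Among these, Drd1 had group means of 6.932 to 7.075 and Cbln1 of 6.068 to 6.352, and their source was not tested. The mean correlation of an array with the other arrays of its group was 0.993 to 0.997. WT polyribosomal array 4 and KO polyribosomal array 5 had the lowest value of their groups, and in these 2 lysates the cytosolic synthetases stood apart from the other lysates, as described below with values with and without them. The number of arrays limited the precision.

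A gene was tested where its brightest probe set reached a log2 value of 4 in no fewer than 6 of the arrays that entered a comparison (12 arrays, or all 24 where the polyribosomal minus total difference was compared between genotypes), and 33 of the 35 genes passed. Vars, the cytosolic valine enzyme, and Wars2, the mitochondrial tryptophan enzyme, did not, and their group means lay at 3.43 to 3.69 and at 3.79 to 3.95. Among those that passed, Ears2 reached 4 in 6 polyribosomal and 2 total arrays of KO and in 6 polyribosomal and 5 total arrays of WT, so in KO it entered mainly through the group in which it was high. Mars2 reached 4 in 4 polyribosomal and 6 total arrays of KO and in 4 polyribosomal and 5 total arrays of WT. The other 31 genes reached 4 in all 24 arrays.

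The first question was which synthetase mRNAs were relatively more or less abundant on heavy polyribosomes than in the lysate they came from. Equal amounts of RNA were labelled, so a difference is a change in a gene's share and not in the number of its molecules. In KO, 19 of the 33 tested synthetase genes were higher in polyribosomal RNA and 2 were lower, with a median difference of 0.30 on the log2 scale. In WT, 22 of the 33 were higher and 2 lower, with a median of 0.38. Over all genes, 3750 of 9700 were higher (38.7%) and 2739 lower (28.2%) in KO, with a median of 0.09. In WT 3650 of 9725 were higher (37.5%) and 2760 lower (28.4%), with a median of 0.09. The calls are those of limma at an adjusted p below 0.05, with the lysate as a block.

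Of the 14 tested mitochondrial enzymes, 12 were higher in polyribosomal RNA and none lower in KO, and again 12 higher and none lower in WT. Their median differences were 0.59 in KO and 0.51 in WT. Without Ears2, which passed the filter in KO mainly through its polyribosomal arrays, 11 of 13 were higher in each genotype. Of the 17 tested cytosolic enzymes, 6 were higher and 2 lower in KO (median 0.23), and 9 were higher and 2 lower in WT (median 0.26). Of the pair that serves both compartments, Gars was higher in each genotype (0.42 in KO and 0.45 in WT) and Kars did not pass the test (0.07 in KO and 0.03 in WT).

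**Figure D1:**
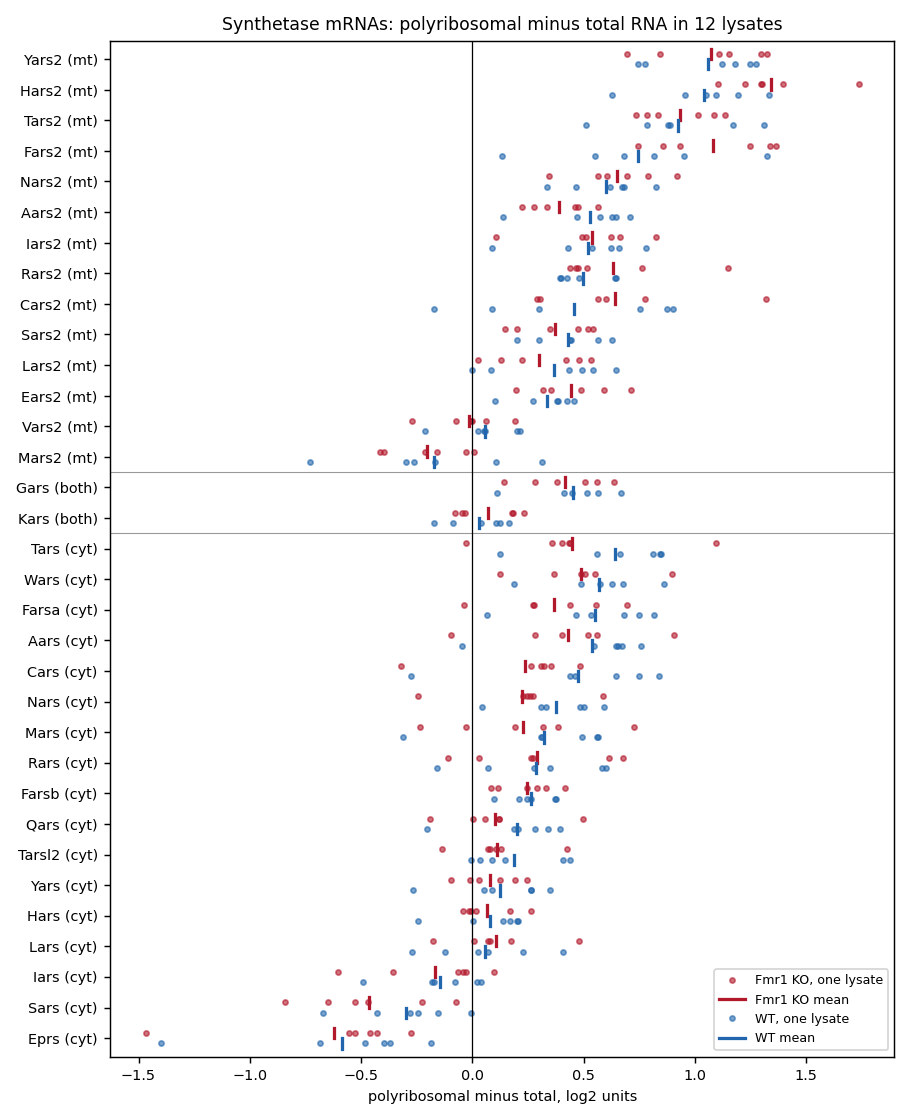
Polyribosomal minus total log2 value of the 33 tested synthetase genes, in rows by compartment (mt, mitochondrial; both; cyt, cytosolic), with 1 point per lysate (6 Fmr1 KO, 6 WT) and a bar at the mean of each genotype. Most mitochondrial enzymes lie right of 0 in every lysate, and Eprs and Sars lie left of 0 in all 12.

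Yars2, the mitochondrial tyrosine enzyme, lies on chromosome 16. Its log2 values were 7.25 (lowest), 7.57 (median) and 7.73 (highest) in KO polyribosomal RNA, against 6.31, 6.47 and 6.65 in KO total RNA. In WT they were 7.25, 7.50 and 7.67 in polyribosomal RNA, against 6.22, 6.45 and 6.70 in total RNA. Every polyribosomal array lay above every total array in both genotypes. The difference was 1.07 ± 0.10 in KO (SE; 2.10-fold, adjusted p = 3.15e-06) and 1.06 ± 0.10 in WT (2.08-fold, adjusted p = 4.10e-06).

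Hars2, the mitochondrial histidine enzyme on chromosome 18, had the highest difference of any synthetase in KO. Its values were 7.05, 7.26 and 7.60 (lowest, median and highest) in KO polyribosomal RNA, against 5.82, 5.92 and 6.05 in KO total RNA. In WT they were 6.71, 6.84 and 7.05 in polyribosomal RNA, against 5.63, 5.74 and 6.09 in total RNA. The polyribosomal and total arrays did not overlap in either genotype. The gene was 2.54-fold higher in polyribosomal RNA of KO (log2 difference 1.34 ± 0.09 SE, adjusted p = 3.69e-07) and 2.06-fold higher in that of WT (1.04 ± 0.10, adjusted p = 4.78e-06).

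Tars2, the mitochondrial threonine enzyme on chromosome 3, had values of 7.002, 7.45 and 7.60 in KO polyribosomal RNA, against 6.17, 6.43 and 6.64 in KO total RNA. In WT they were 7.14, 7.28 and 7.60 in polyribosomal RNA, against 6.25, 6.39 and 6.73 in total RNA. The groups did not overlap. The difference was 0.93 ± 0.08 in KO (SE, adjusted p = 2.80e-06) and 0.92 ± 0.11 in WT (adjusted p = 2.08e-05).

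Fars2, the mitochondrial phenylalanine enzyme on chromosome 13, is a single chain, unlike its cytosolic counterpart. Its values were 8.54, 8.76 and 8.81 in KO polyribosomal RNA, against 7.43, 7.56 and 7.96 in KO total RNA. In WT they were 8.12, 8.55 and 8.80 in polyribosomal RNA, against 7.29, 7.87 and 7.98 in total RNA. The groups did not overlap, and the WT polyribosomal arrays were spread more widely than those of KO (SD 0.25 in WT against 0.10 in KO). The difference was 1.08 ± 0.10 in KO (SE, adjusted p = 3.68e-06) and 0.74 ± 0.13 in WT (adjusted p = 0.000449).

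The other mitochondrial enzymes that were higher in polyribosomal RNA of both genotypes were Nars2, Aars2, Iars2, Rars2, Cars2, Sars2, Lars2 and Ears2, which charge asparagine, alanine, isoleucine, arginine, cysteine, serine, leucine and glutamate tRNAs. Their differences were 0.30 to 0.65 in KO and 0.34 to 0.60 in WT. Cars2 varied most between lysates, at 0.29 to 1.32 in KO and -0.17 to 0.90 in WT, where its call was lost without replicate 4 or 6 (adjusted p up to 0.0554). Vars2, the valine enzyme, was at -0.02 in KO and 0.06 in WT, and Mars2, the methionine enzyme, at -0.20 in KO (adjusted p = 0.0576) and -0.17 in WT (adjusted p = 0.236). Neither passed the test in either genotype, but Mars2 was called lower in KO under 4 alternatives, among them without replicate 5 (adjusted p from 0.0228 to 0.0457 over the 4). These calls rest on 1 dim probe set. The other probe set of Mars2 did not pass the filter in these comparisons. Its differences were above 0 in 6 of 6 lysates of each genotype, with means of 0.35 in KO and 0.26 in WT.

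Among the cytosolic enzymes, 6 were higher in both genotypes. Tars, the threonine enzyme, differed by 0.45 in KO and 0.64 in WT, and Wars, the tryptophan enzyme, by 0.49 in KO and 0.57 in WT. Aars, the alanine enzyme, differed by 0.43 in KO and 0.54 in WT. Farsa and Farsb encode the 2 subunits of the cytosolic phenylalanine enzyme, and both were higher, Farsa by 0.37 in KO and 0.55 in WT and Farsb by 0.25 in KO and 0.26 in WT. Rars, the arginine enzyme, differed by 0.29 in each genotype. With single replicates left out the call of Farsb was lost in KO (without replicate 2 or 4) and that of Rars in both genotypes (without any of 4 replicates in each).

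Cars, Nars and Mars, the cysteine, asparagine and methionine enzymes, passed the test in WT and missed it in KO. Their differences were 0.24, 0.23 and 0.23 in KO and 0.48, 0.38 and 0.32 in WT, and the test between genotypes called none of them. Without replicate 5 all 3 were also called in KO (limma's adjusted p = 0.00289, 0.00807 and 0.0251), and in WT the call of Mars was lost without replicate 1, 2, 3, 5 or 6 (adjusted p up to 0.0941). Qars, Tarsl2, Yars, Hars, Lars and Iars did not pass in either genotype, at -0.17 to 0.11 in KO and -0.14 to 0.20 in WT, but without replicate 4 Qars, Tarsl2 and Yars were called higher in WT. Tarsl2 is a second cytosolic threonine enzyme that lies apart from Tars in the genome.

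Eprs and Sars were lower in polyribosomal RNA in all 12 lysates. Eprs, on chromosome 1, encodes a single protein that charges both glutamate and proline tRNAs. Its values were 8.62, 9.61 and 9.79 in KO polyribosomal RNA, against 9.93, 10.08 and 10.19 in KO total RNA. In WT they were 8.85, 9.57 and 9.80 in polyribosomal RNA, against 9.98, 10.07 and 10.24 in total RNA. The groups did not overlap, and the lowest polyribosomal arrays were KO replicate 5 and WT replicate 4. Eprs fell by 0.62 ± 0.14 in polyribosomal RNA of KO (SE, adjusted p = 0.00178) and by 0.59 ± 0.14 in that of WT (adjusted p = 0.00307). Its 3 tested probe sets were lower in both genotypes, at -0.71 to -0.41 in KO and -0.59 to -0.45 in WT.

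Sars, the cytosolic serine enzyme on chromosome 3, had values of 9.94, 10.18 and 10.40 in KO polyribosomal RNA, against 10.47, 10.68 and 10.78 in KO total RNA. In WT they were 10.01, 10.32 and 10.45 in polyribosomal RNA, against 10.45, 10.58 and 10.76 in total RNA. The groups were apart in KO and touched in WT. Sars fell by 0.46 ± 0.10 in polyribosomal RNA of KO (SE, adjusted p = 0.00210) and by 0.30 ± 0.10 in that of WT (adjusted p = 0.0188). Without replicate 5 the WT call was lost (adjusted p = 0.0519).

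**Figure D2:**
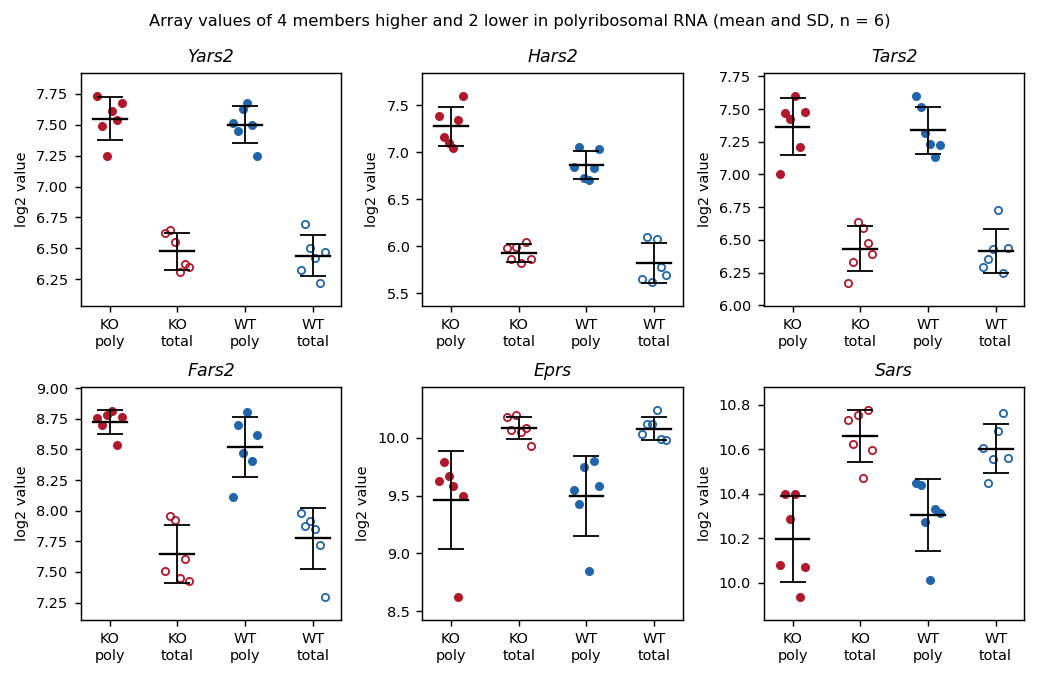
Log2 values of the 6 synthetase genes described array by array, in KO polyribosomal, KO total, WT polyribosomal and WT total RNA, with the mean and SD of 6 arrays. For Yars2, Hars2, Tars2 and Fars2 every polyribosomal array lies above every total array of its genotype, and for Eprs every polyribosomal array lies below.

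The 2 genotypes come from separate lysates, and their differences were alike. Over the 33 genes, Pearson's r between the KO and WT differences was 0.955, a description over genes that are not independent. The sign was the same in both genotypes for 32 of the 33, and Vars2 was the exception. In all, 19 genes were higher in both genotypes, 2 lower in both, 9 past the threshold in neither, and 3 (Cars, Nars and Mars) past it in WT and not in KO, where they were called without replicate 5. Of the 33 genes, 13 were above 0 in all 12 lysates. The shares of all genes for these counts over both genotypes were not worked out here, so the counts are not read as particular to synthetases. In each genotype alone, 38.7% of all genes in KO and 37.5% in WT were higher.

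For 10 amino acids there was exactly 1 cytosolic and 1 mitochondrial enzyme on the list, with both tested, so the 2 enzymes of an amino acid could be set side by side within each lysate. The polyribosomal difference was larger for the mitochondrial enzyme in 8 of 10 pairs in KO, with a median gap of 0.42, and in 7 of 10 in WT, with a median gap of 0.27. No test was made of this, since the pairs share lysates. In 4 pairs the mitochondrial enzyme had the larger difference in all 12 lysates, and these were histidine, isoleucine, serine and tyrosine. For histidine, Hars2 differed by 1.34 and Hars by 0.07 in KO, and by 1.04 and 0.08 in WT. With the other probe set of Hars, at 1.29 in KO and 1.27 in WT, this order would hold in KO and not in WT. For isoleucine, Iars2 differed by 0.54 and Iars by -0.17 in KO, and by 0.52 and -0.14 in WT. For serine, Sars2 differed by 0.37 and Sars by -0.46 in KO, and by 0.43 and -0.30 in WT. For tyrosine, Yars2 differed by 1.07 and Yars by 0.08 in KO, and by 1.06 and 0.13 in WT. The alanine pair moved alike (Aars2 0.39 and Aars 0.43 in KO, 0.53 and 0.54 in WT), and for methionine the order was the other way round (Mars2 -0.20 and Mars 0.23 in KO, -0.17 and 0.32 in WT). With the dimmer probe set of Mars2, at 0.35 in KO and 0.26 in WT, this order would hold in WT and not in KO.

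The 7 tested synthetases of the multisynthetase complex had a median difference of 0.10 in KO and 0.06 in WT. The median over all genes was 0.09 in each genotype. Of the 7, Rars alone was higher in KO and Mars and Rars in WT, and Eprs was lower in both. Over all genes, 38.7% were higher and 28.2% lower in KO, and 37.5% and 28.4% in WT. The 11 tested cytosolic enzymes outside the complex had a median of 0.24 in KO, with 5 higher and 1 lower, and of 0.38 in WT, with 7 higher and 1 lower. By fold of the catalytic site, and with Eprs, which carries a site of each class, counted in neither, 8 of 16 class I enzymes were higher in KO and 10 of 16 in WT, with none lower. Of 16 class II enzymes, 11 were higher and 1 lower in KO, and 12 were higher and 1 lower in WT.

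The compartments were also compared lysate by lysate. The median over the mitochondrial enzymes lay between 0.33 and 0.66 in the KO lysates and between 0.33 and 0.63 in the WT lysates. The median over the cytosolic enzymes lay between -0.14 and 0.48 in KO and between -0.20 and 0.44 in WT. The mitochondrial median was the higher one in all 12 lysates, by 0.05 to 0.67 in KO and by 0.02 to 0.53 in WT. The compartments also differed in signal. Mean log2 levels ran from 4.16 (Mars2) to 8.17 (Fars2) for tested mitochondrial enzymes and from 7.41 (Cars) to 12.19 (Hars) for cytosolic ones. The part of signal level in the gap was not tested. KO lysate 5 and WT lysate 4 had the lowest cytosolic medians, -0.14 and -0.20, with mitochondrial medians of 0.53 and 0.33 and all-gene medians of 0.04 and 0.06. What set these lysates apart was not tested. Without replicate 5, 22 genes were higher and 3 lower in KO, and without replicate 4, 24 were higher and 2 lower in WT.

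**Figure D3:**
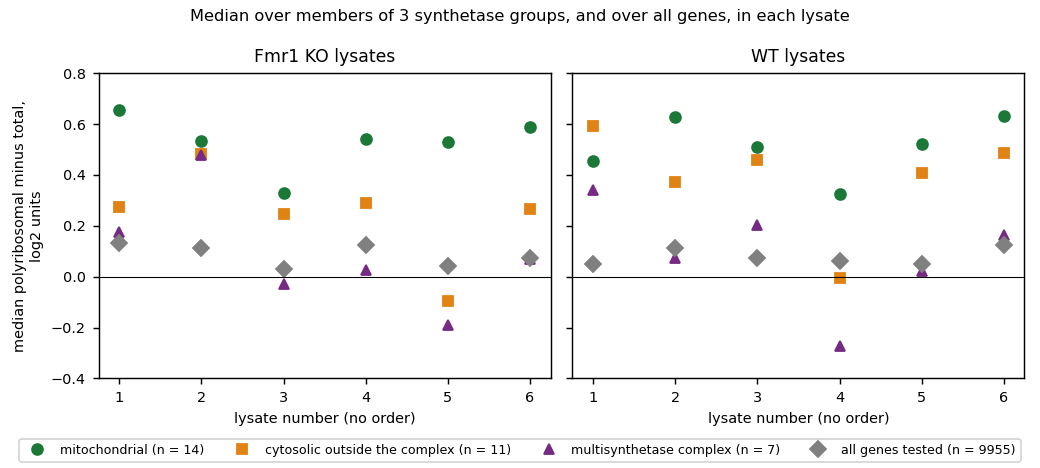
Median polyribosomal minus total log2 difference in each of 6 Fmr1 KO lysates (left) and 6 WT lysates (right), over the mitochondrial synthetases, the cytosolic ones outside the multisynthetase complex, the complex subunits and all genes tested. The mitochondrial median is positive in all 12 lysates. In KO lysate 5 and WT lysate 4 the median of the complex subunits (7 synthetases) falls to -0.19 and -0.27.

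Several genes had more than 1 tested probe set, 15 in KO and 14 in WT, and no gene was called in opposite directions by its probe sets. Their signs were opposite for 3 genes in KO and 1 in WT. A dimmer probe set of Qars was called lower in KO (-0.26, limma's adjusted p = 0.0481), where its brightest was at 0.10 and not called. The second probe set of Nars, nearly as bright as the first, was at 0.125 in WT and not called (adjusted p = 0.236). That of Lars2 was at 0.125 in KO and not called (adjusted p = 0.224). The calls of Nars in WT and of Lars2 in KO therefore depended on the probe set. The widest gap was at Hars, the cytosolic histidine enzyme, which lies on chromosome 18 like Hars2. Its brightest probe set differed by 0.07 in KO and 0.08 in WT and did not pass the test. Its other probe set had values of 11.02, 11.11 and 11.20 in KO polyribosomal RNA, against 9.72, 9.78 and 9.99 in KO total RNA, and of 10.89, 11.05 and 11.17 in WT polyribosomal RNA, against 9.72, 9.75 and 9.90 in WT total RNA. It differed by 1.29 ± 0.08 in KO (SE, adjusted p = 1.96e-07) and 1.27 ± 0.08 in WT (adjusted p = 3.41e-07). Whether Hars mRNA was higher in polyribosomal RNA therefore depended on the probe set, and with it the gap of the histidine pair. The second probe sets of Yars2, Hars2 and Fars2 gave smaller differences in the same direction, 0.58, 0.76 and 0.67 in KO and 0.45, 0.30 and 0.39 in WT.

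**Figure D4:**
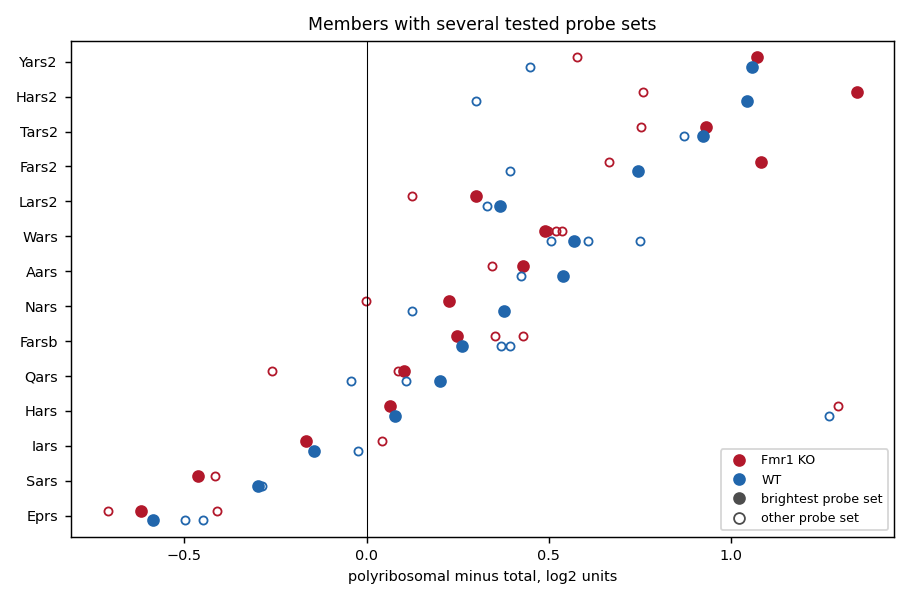
Polyribosomal minus total log2 difference of each tested probe set, for the 14 synthetase genes with several tested in both genotypes; filled points are the brightest probe set, open points the others, Fmr1 KO drawn above WT. The open points of Hars lie at 1.29 in KO and 1.27 in WT, far from its filled points near 0.

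Many cytosolic synthetase genes are known targets of ATF4, the transcription factor of the amino acid response, which with C/EBP partners binds a composite element. Its core, TGATGNAA with N any base, was searched on both strands in the 300 bases around each gene start (250 before and 50 from the start on, RefSeq, GRCm38.p6), and no overlap with another motif was considered. It was present in 1219 of 27025 genes with such a window (4.51%) and in 5 of the 27 synthetase genes that had one, Aars, Gars, Iars, Tars and Yars. By compartment these were 4 of 11 cytosolic genes, 1 of the 2 that serve both compartments and 0 of 14 mitochondrial genes. A match is a description of the sequence and not a site of binding. The 9 genes with no window in the table were Cars, Dars, Hars, Hars2, Lars, Nars, Rars, Vars and Wars. The windows of Aars, the one gene with 2 matches, Tars, with the highest WT difference of the cytosolic enzymes, and Iars, with a match and no call, are shown 5′ to 3′ with the matched letters in capitals. All 4 matches here read on the opposite strand, as TTNCATCA.
Aars, chr8:111033592-111033891, plus strand: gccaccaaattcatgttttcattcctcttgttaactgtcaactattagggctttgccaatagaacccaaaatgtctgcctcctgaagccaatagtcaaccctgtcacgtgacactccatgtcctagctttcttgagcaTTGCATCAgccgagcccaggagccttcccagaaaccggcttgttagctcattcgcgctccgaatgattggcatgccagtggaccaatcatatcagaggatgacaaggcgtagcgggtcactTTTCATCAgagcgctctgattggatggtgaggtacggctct
Tars, chr15:11399609-11399908, minus strand: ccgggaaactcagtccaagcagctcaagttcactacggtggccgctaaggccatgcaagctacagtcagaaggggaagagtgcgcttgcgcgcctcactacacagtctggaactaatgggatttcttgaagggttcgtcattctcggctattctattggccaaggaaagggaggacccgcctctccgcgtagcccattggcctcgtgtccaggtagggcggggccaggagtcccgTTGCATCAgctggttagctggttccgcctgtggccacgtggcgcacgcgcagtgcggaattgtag
Iars, chr13:49681880-49682179, plus strand: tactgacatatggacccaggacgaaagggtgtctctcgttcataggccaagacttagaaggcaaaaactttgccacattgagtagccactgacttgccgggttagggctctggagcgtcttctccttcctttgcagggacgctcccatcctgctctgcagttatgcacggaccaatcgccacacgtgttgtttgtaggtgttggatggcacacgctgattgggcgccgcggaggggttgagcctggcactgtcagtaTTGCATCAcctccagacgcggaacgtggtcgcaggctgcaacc
The polyribosomal differences of the 5 genes with a match were 0.43, 0.42, -0.17, 0.45 and 0.08 in KO and 0.54, 0.45, -0.14, 0.64 and 0.13 in WT, in the order Aars, Gars, Iars, Tars and Yars, so genes with a match were found on both sides of 0.

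Other genes of tRNA charging and use were read from lists chosen by function. The 3 non-enzymatic scaffold proteins of the multisynthetase complex did not move together. Aimp1 was higher by 0.58 in KO and 0.49 in WT, Aimp2 by 0.92 in KO and 0.79 in WT, and Eef1e1 fell by 0.46 in KO and by 0.51 in WT. Pars2, the mitochondrial proline enzyme, was at -0.09 in KO and 0.00 in WT and did not pass.

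Of 6 genes that make charged tRNAs indirectly or modify the amino acid after charging, 2 were higher and 2 lower in each genotype. Qrsl1, the catalytic subunit of the mitochondrial glutamyl-tRNA amidotransferase, was higher by 0.88 in KO and 0.82 in WT, and Gatc, another subunit of the same enzyme, fell by 0.82 in KO and by 0.85 in WT. Of 3 measured genes that clear wrongly charged tRNAs, 2 were higher in each genotype, Aarsd1 by 0.82 in KO and 0.78 in WT and Dtd1 by 0.84 in KO and 0.65 in WT, while Prorsd1 was at -0.15 in KO and -0.08 in WT.

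Among 17 measured genes of tRNA processing, modification and export, 13 were higher and 1 lower in KO, and 12 were higher and 1 lower in WT. The gene that was lower was Pop5, a protein subunit of RNase P, at -1.16 in KO and -1.32 in WT, and Trmt61a, the catalytic subunit of a tRNA methyltransferase, was higher by 0.67 in KO and 0.84 in WT. Of 6 elongation factor genes that bring charged tRNA to the ribosome or recharge those factors, 2 were higher and 4 lower in KO, and 2 were higher and 2 lower in WT. The higher 2 were the mitochondrial factors Tsfm, at 1.15 in KO and 0.92 in WT, and Tufm, at 0.51 in KO and 0.71 in WT. Eef1b2 and Eef1d, of the cytosolic exchange factor, were lower in both genotypes.

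ATF4 and its targets other than synthetases were divided. In KO 9 of 18 were higher and 4 lower, and in WT 10 of 19 were higher and 6 lower. Ddit4, an inhibitor of mTORC1 signalling, was higher by 1.41 in KO and 1.32 in WT, and Psph, the last enzyme of serine synthesis, by 1.15 in KO and 1.02 in WT. Atf4 itself fell by 0.36 in polyribosomal RNA of KO and by 0.45 in that of WT. Over these lists the higher and lower shares stand beside 38.7% and 28.2% of all genes in KO and 37.5% and 28.4% in WT.

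The second question was whether loss of Fmr1 changed synthetase mRNAs on polyribosomes or in the lysate. No synthetase passed the test in either. In polyribosomal RNA 0 of 33 were called, against 1 of 9664 genes (0.0103%), and in total RNA 0 of 33, against 4 of 9690 genes (0.0413%). Fmr1 itself was the 1 gene called in polyribosomal RNA and was among the 4 called in total RNA. Counted by probe sets over the whole array, total RNA gave 7 calls, and 4 with the replicate number as a block. At limma's unadjusted p below 0.05 there was 1 synthetase in each, where 215 genes in polyribosomal and 489 genes in total RNA reached it. The median KO minus WT difference over the 33 was -0.01 in polyribosomal RNA and 0.03 in total RNA, next to 0.01 and -0.01 over all genes. Half-widths of the 95% intervals ran up to 0.50 in polyribosomal RNA (lowest 0.19) and up to 0.27 in total RNA (lowest 0.11). In such lysates, fewer cells of a type and less RNA per cell cannot be told apart.

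Hars2 was the synthetase nearest to a call in polyribosomal RNA. Its 6 KO polyribosomal arrays read 7.38, 7.16, 7.10, 7.05, 7.35 and 7.60, against 6.85, 7.05, 6.72, 6.71, 6.83 and 7.03 in the WT polyribosomal arrays. The groups nearly parted, with 1 KO array inside the WT range. The difference was 0.41 (95% interval 0.17 to 0.65, limma's unadjusted p = 0.00236, adjusted p = 0.9999). In total RNA Hars2 differed by 0.11 with its brightest probe set and by -0.24 with the other, and neither was called (adjusted p = 0.998 and 0.930).

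Fars2 came next in polyribosomal RNA, with the values given above, and its groups overlapped. It differed by 0.21 (95% interval -0.04 to 0.45, limma's unadjusted p = 0.0889, adjusted p = 0.9999). In total RNA the smallest p was that of Qars, the glutamine enzyme of the multisynthetase complex. Its KO total arrays read 9.51, 9.46, 9.47, 9.49, 9.48 and 9.51, against 9.36, 9.37, 9.48, 9.23, 9.39 and 9.28 in the WT total arrays. Of the WT arrays, 1 lay inside the KO range and 5 below it. The difference was 0.13 (95% interval 0.03 to 0.24, limma's unadjusted p = 0.0191, adjusted p = 0.951). Vars2 had values of 4.76, 4.83 and 5.17 (lowest, median and highest) in KO total RNA, against 4.56, 4.84 and 4.93 in WT total RNA, and the groups overlapped (difference 0.12, adjusted p = 0.998).

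**Figure D5:**
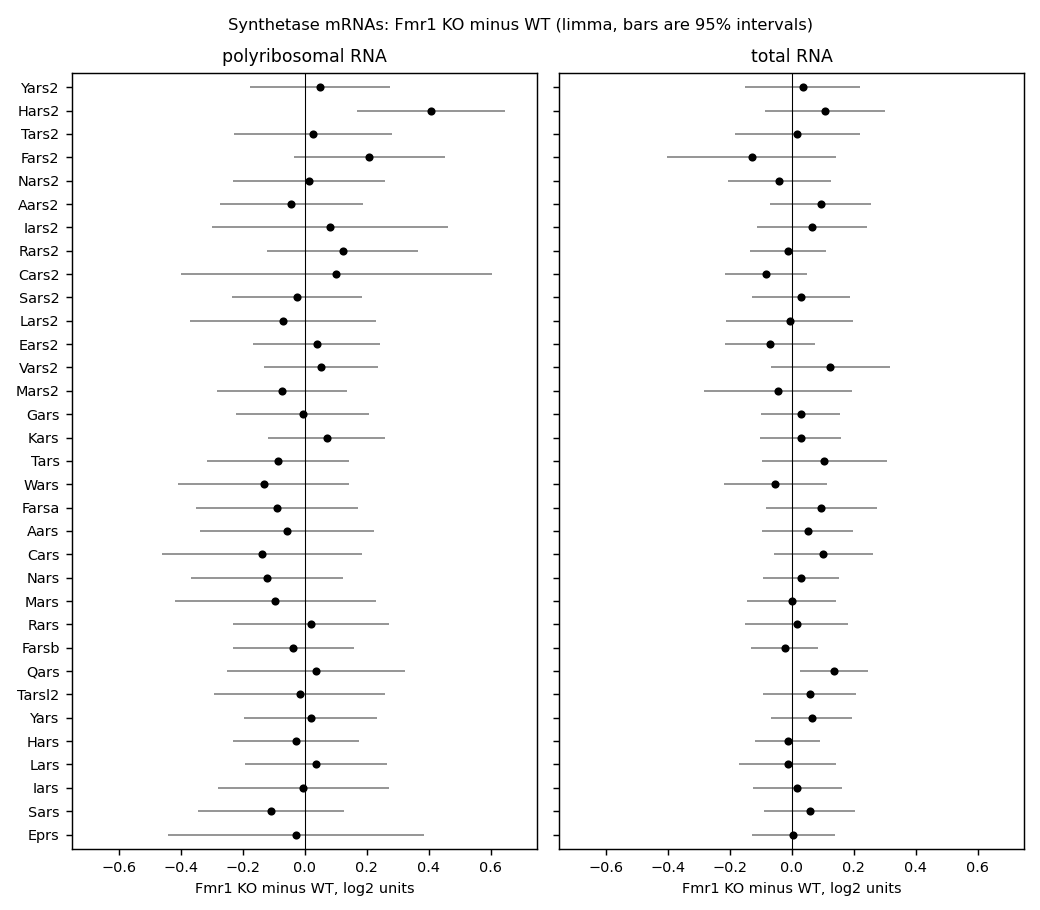
Fmr1 KO minus WT log2 difference of the 33 tested synthetase genes in polyribosomal RNA (left) and total RNA (right), with 95% intervals from limma. The interval of Hars2 in polyribosomal RNA (0.17 to 0.65) and that of Qars in total RNA (0.03 to 0.24) lie right of 0, and all the other intervals include 0.

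The last comparison asked whether the polyribosomal minus total difference itself differed between KO and WT lysates. It called 0 of 33 synthetases and 0 of 9955 genes (0.0%), with 1 synthetase and 233 genes at an unadjusted p below 0.05 in limma. The median over the 33 synthetases was -0.03, next to 0.02 over all genes. The difference of Hars2 lay between 1.11 and 1.74 in the 6 KO lysates, against 0.63 and 1.34 in the 6 WT lysates. The ranges overlapped, and the gap was 0.30 (95% interval 0.02 to 0.58, unadjusted p = 0.0389, adjusted p = 0.999). With the other probe set of Hars2 the gap was 0.46 (limma's unadjusted p = 0.00259, adjusted p = 0.999). The KO minus WT differences of these probe sets in total RNA had opposite signs, so the size of the gap depended on the probe set. For Fars2 the lysates lay between 0.74 and 1.37 in KO, against 0.14 and 1.32 in WT, and the gap was 0.34 (95% interval -0.04 to 0.71, unadjusted p = 0.0737, adjusted p = 0.999). The 11 tested cytosolic enzymes outside the multisynthetase complex all had a gap below 0, at -0.24 to -0.01 with a median of -0.11, and none was called. Over all genes 56.5% of the gaps were above 0. The 11 enzymes were measured in the same lysates, so their shared sign does not count as 11 separate results. Over these enzymes the median polyribosomal difference was -0.10 in KO lysate 5 and -0.01 in WT lysate 4, the lowest of each genotype, and both lysates enter that comparison.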

How the data were processed

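RNA was measured on 24 Affymetrix Mouse 430 2.0 arrays, 6 in each of 4 groups taken from the sample titles. The authors deposited 1 log2 value per probe set and array, made with GCRMA per the submitters' processing notes, which corrects the background and normalizes between arrays; the log2 scale was read from the values, and the version was not given in the sources used here. Probe sets were named through the platform annotation, which gave 1 symbol for 34945 of 45037, several for 932 and none for 9160.

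The authors set aside 20% of each cleared lysate as total RNA, per the labels. Differences were fitted on all probe sets that reached a log2 value of 4 in 6 or more of the 12 arrays fitted (of all 24 in the last comparison), using lmFit and eBayes of limma 3.58.1 (R 4.3.3). Tests were two-sided, and p-values were adjusted by Benjamini-Hochberg over all probe sets tested, with a threshold of 0.05. The 5 comparisons were polyribosomal against total RNA in each genotype with the lysate as a block, Fmr1 KO against WT in each RNA, and the 12 polyribosomal minus total differences between genotypes. A gene's value is that of the probe set with the highest mean over 24 arrays. The code was tested on simulated data. In the polyribosomal against total comparisons, p-values measure how the polyribosomal minus total difference of a lysate varied between the 6 lysates. In the genotype comparisons they measure the spread between lysates, each a pool of mice, 6 per genotype.

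The members and gene lists were chosen with earlier results of these data known. Genes given array by array were the 4 largest rises and falls in WT (2 falls qualified) among those past the threshold in both genotypes with 1 direction in all 12 lysates, and the 2 smallest p in each genotype comparison. Pathway lists are given by counts with their 2 largest values, or each value of shorter lists; Atf4 and the lower elongation factors were named after their values were seen. Protein lengths were not used here.

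Whether replicate numbers mark pairs was checked on residuals from the group means. Between KO and WT arrays of 1 number, total RNA gave correlations from 0.133 (lowest) up to 0.532 (highest). The array of the same number was the best match in 5 of 6 cases. For polyribosomal RNA the lowest was -0.14 and the highest 0.625, with the same number best in 2 of 6. The main genotype fits did not pair samples by number, so their p-values and intervals take no account of such pairing. Pairing by number was used only as an alternative, and it changed no synthetase call. Polyribosomal and total arrays of 1 number correlated at 0.156 to 0.474 in KO and 0.021 to 0.525 in WT, which share a lysate by the protocol. Alternatives were other filters, normalizations, variance models, array weights, probe set rules, blocks and leaving out each replicate. Promoter windows are RefSeq's, GRCm38.p6. Plots were made in Python 3.11.15 with matplotlib 3.10.9.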

Additional observations from a re-analysis of the deposited data

Results flagged for a closer look

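Of 132 sets of 6 arrays (33 genes in 4 groups), 12 held an array far from the other 5 by Dixon's criterion, which sets the gap to the nearest array against the whole range. Chance gives about 1 in 20 such sets if they are independent and normal, or about 6.6 here. The sets share arrays, several flags fell on the same array, and the rate over all genes was not taken. The count of 12 is therefore not read as an excess.

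In KO polyribosomal RNA, replicate 5 was the lowest array for Eprs at 8.62, next 9.50, and for Iars2 at 6.72, next 7.42, and replicate 1 was the highest for Rars2 at 6.26, with the next array at 5.79. In WT polyribosomal RNA, replicate 4 was the lowest array for 5 genes: Aars at 10.16, with the next array at 10.62; Gars at 10.80, next 11.14; Mars at 8.02, next 8.65; Qars at 9.02, next 9.58; and Tars at 8.25, next 8.53. KO lysate 5 and WT lysate 4 are those with the lowest cytosolic medians.

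In KO total RNA, replicate 6 was the highest array for Ears2 at 4.26, next 4.00, and for Farsb at 10.80, next 10.69, and replicate 3 was the highest for Hars at 12.24, next 12.14. In WT total RNA, replicate 6 was the lowest for Fars2 at 7.29, next 7.72. No synthetase passed limma's test of the polyribosomal minus total difference between genotypes (smallest adjusted p = 0.999), and 1 had an unadjusted p below 0.05.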

How the results depend on the processing

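No synthetase changed direction while called under any of up to 15 alternatives per comparison, 1 of which (probe sets not of the _x_at or _s_at kind) was chosen after seeing the data. In KO, between 13 and 22 were higher and 2 to 3 lower; in WT, 16 to 24 higher and 1 to 2 lower. The 13 and 16 come from the filter at a log2 value of 6, under which fewer genes were tested. Leaving out 1 replicate at a time gave 1 to 2 lower synthetases in WT, Sars being lost without replicate 5. Calls near the threshold moved: in KO, Rars was lost in 5 of 15 alternatives and Farsb in 2, while Mars2 was gained as lower in 4, Cars and Nars as higher in 3 and Mars in 2. In WT, Mars was lost in 5, Rars in 4 and Cars2 in 2, while Qars and Tarsl2 were gained in 3 and Yars in 1. Hars was higher in both genotypes only with the mean of its probe sets. The cause was not tested.

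Between genotypes no synthetase was called under any alternative. Over all probe sets, total RNA gave 7 calls, with 3 at the filter of 6, 4 with the replicate number as a block and 2 to 4 with 1 replicate left out. The replicate block, used as an alternative in the genotype comparisons, changed no synthetase call; without the lysate as a block, 20 synthetases were higher and 3 lower in KO, and 22 higher and 2 lower in WT. Genes near background, such as Ears2, Mars2, Vars and Wars2, are limited by the signal.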
